A study of Mizuhopecten yessoensis with 6 samples.

Results

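The 145 most abundant nuclear transcripts of scallop gill were described here: the nuclear genes whose FPKM averaged 500 or more over all 6 libraries. FPKM is a count of sequenced fragments scaled to transcript length and library total. These genes were selected on their measured mean level over both groups together, so their high level is the rule and not a finding. They are 0.697% of the 20815 genes in the deposited table, and the 11 mitochondrial genes were left out.

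The animal is Mizuhopecten yessoensis, the Yesso scallop, which lives in cold seas. Gill was sampled after 24 h of hypoxia, with dissolved oxygen at 1 mg/L (3 libraries), or of normal oxygen at 9 mg/L (3 libraries). Each library came from 1 scallop drawn from its oxygen group, and no genotype, strain or age is stated. Whether each group was held in 1 tank or several is not stated, so a tank effect cannot be told apart from the oxygen level. Variation among individual scallops is therefore all that the p-values take into account.

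Gill is the gas-exchange and feeding surface of a bivalve, a ciliated epithelium washed by the surrounding water. In animal tissues a small set of nuclear genes usually supplies a large part of the messenger RNA. Genes for ribosomal proteins, translation factors, cytoskeletal proteins and iron storage are often among them, and many of their transcripts are short. Which of the 145 genes belong to such classes is not said here, because the reference table gives each of them its LOC identifier and no name or product. The labelled tissue could not be checked against marker genes for the same reason. In bulk tissue, fewer cells of a type and less RNA per cell cannot be told apart.

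The FPKM values were turned back into whole reads, with library totals between 24062577 and 27900042. Across the 6 libraries the abundant genes had between 1204 and 430374 reads each, so the counting error of the lowest value was 2.88% of it. PCR copies are not independent molecules, and this error covers counting only. All 145 genes passed the filter on low values (at least 1 FPKM in 3 libraries).

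A large part of all FPKM lay on these genes in both groups. They held 44.96, 44.7 and 43.1% of total FPKM in hypoxia replicates 1, 2 and 3, against 44.3, 43.5 and 47.1% in normal replicates 1, 2 and 3. The group means were 44.3 ± 0.989% under hypoxia and 44.9 ± 1.86% in normal gill (SD, n = 3 each). The groups overlapped, and the highest share was that of normal replicate 3. The difference of -0.68 percentage points turned to 0.37 without normal replicate 3.

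**Figure D1:**
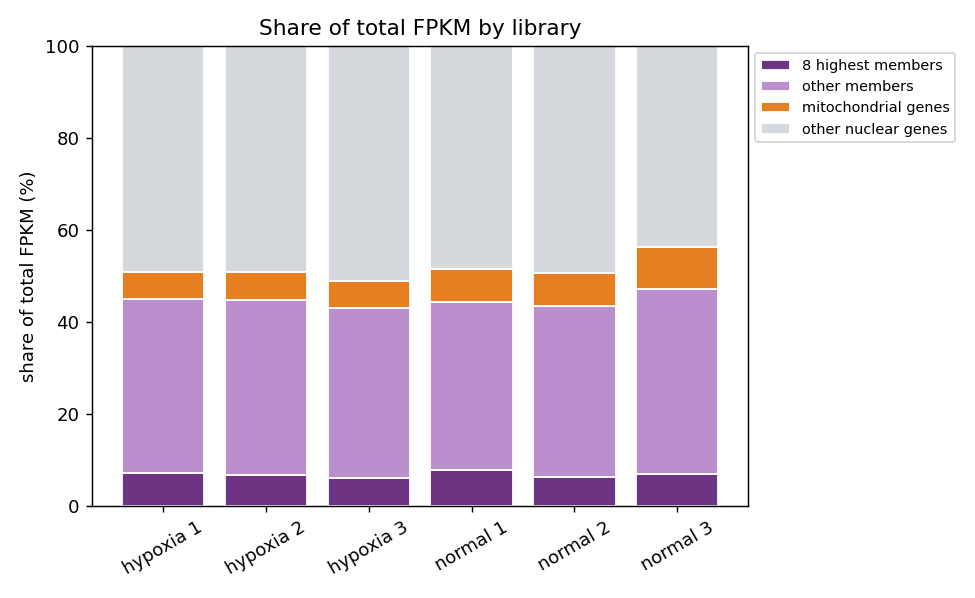
Stacked bars give the share of total FPKM (%, y axis) in each library (x axis, hypoxia then normal) for the 8 highest abundant nuclear genes, the other 137, the 11 mitochondrial genes and all other nuclear genes. The abundant nuclear genes stand between 43.1 and 47.1% in every library.

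FPKM gives short transcripts more weight than a share of reads does. As a share of recovered reads, the 145 genes held 23.4, 22.9 and 21.8% in hypoxia replicates 1 to 3, against 23.9, 22.8 and 25.6% in normal replicates 1 to 3. The means were 22.7 ± 0.811% under hypoxia and 24.1 ± 1.39% in normal gill (SD, n = 3 each), and the groups overlapped here too. The mitochondrial genes, counted in the same total, held 5.99 ± 0.230% of FPKM under hypoxia and 7.87 ± 1.22% in normal gill. Their highest value, 9.28%, was likewise in normal replicate 3. Within nuclear FPKM alone, the abundant genes held 47.1 ± 1.12% under hypoxia and 48.8 ± 2.68% in normal gill (SD, n = 3 each).

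Level declined slowly with rank within the set. The mean over all 6 libraries ran from 7570.3 FPKM for the highest gene to 507 FPKM for the lowest, with a median of 1488 FPKM. Of the 145 genes, 95 averaged 1000 FPKM or more and 40 averaged 2000 FPKM or more. The highest gene made up 3.28% of the summed level of the set and the 8 highest made up 15.3%, and 43 genes were needed to reach 50%. By single library, 126 of the 145 were among the 145 highest nuclear genes in all 6, and 125 were at 500 FPKM or more in all 6. The rule used the mean of these same libraries, so these counts follow in part from it and only describe the set. Just inside the threshold were LOC110445924 and LOC110461505, with means of 507 and 516 FPKM. Just outside it were LOC110442621 and LOC110465611, with means of 498 and 495 FPKM.

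**Figure D2:**
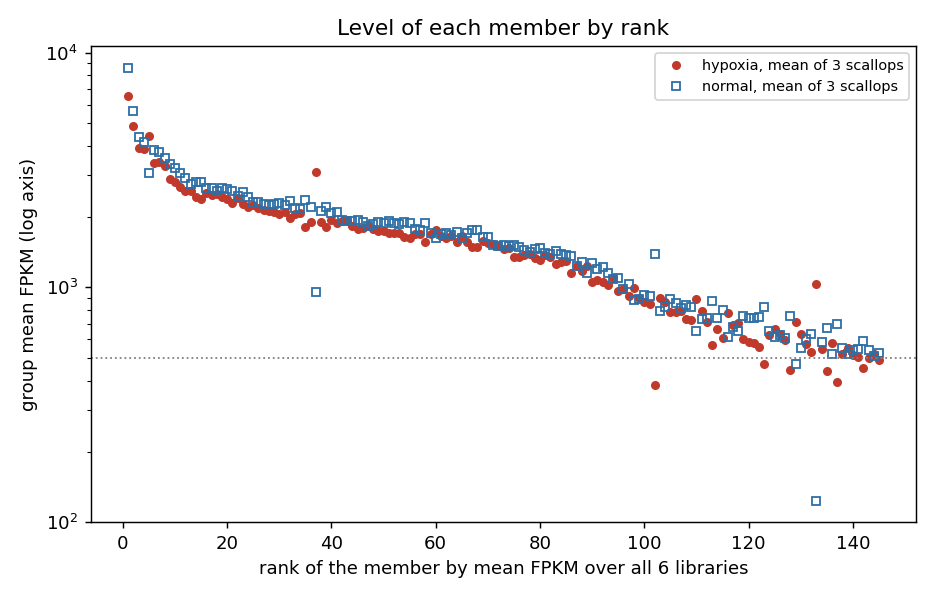
Each of the 145 genes is placed by its rank in mean FPKM (x axis) with its group mean in FPKM (y axis, log scale), filled circles for hypoxia and open squares for normal, and the dotted line marks 500 FPKM. The group means lie close together along the curve except for a few genes, such as LOC110466613 at rank 37 and LOC110453298 at rank 133.

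Most of the abundant genes had similar mean levels under hypoxia and at normal oxygen. Group means differed by less than 1.2-fold in 123 of the 145 genes and by 1.5-fold or more in 8. These counts were not made for other genes. The median size of the log2 change, without its sign, was 0.12 in the 145 genes. Among tested nuclear genes of 100 to under 500 FPKM it was 0.19. It was 0.23 at 10 to under 100 FPKM and 0.26 at 1 to under 10 FPKM. By limma on log2(FPKM + 1), with Benjamini-Hochberg adjustment over all 13744 genes tested, 1 of the 145 rose (0.69%) and 0 fell, against 1.48% of all tested genes higher, 0.429% lower and 1.91% called in all. At an unadjusted p under 0.05, 3 of the 145 had higher and 6 lower values under hypoxia (2.07 and 4.14%), against 11.2 and 7.03% of all tested genes. The groups did not overlap in 3 genes that were higher and 11 that were lower under hypoxia (2.07 and 7.59%), against 15.5 and 10.3% of all tested genes. By voom on the recovered reads, 1 of the 145 was called higher and 0 lower, against 1.31 and 0.357% of all tested genes.

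The median log2 change of the set, hypoxia minus normal, was -0.10, against 0.03 over all tested genes. The middle 50% of the 145 genes lay between -0.17 and -0.02, while that of all tested genes lay between -0.20 and 0.29. Of the 145, 116 had values below 0 (80.0%, against 46.2% of all tested genes) and 29 above. This direction was not steady: the median turned to 0.018 under quantile normalization, with 62 genes below 0 and 83 above, and stood at -0.01 without normal replicate 3, with 80 below and 65 above. The difference between the median of the set and that of all tested genes was -0.13 in the deposited scaling and -0.12 with libraries rescaled to an equal FPKM sum. It was not steady either, at 0.027 under quantile normalization, -0.08 with each library's trend with length removed, -0.21 without normal replicate 1, -0.18 without normal replicate 2 and -0.026 without normal replicate 3.

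**Figure D3:**
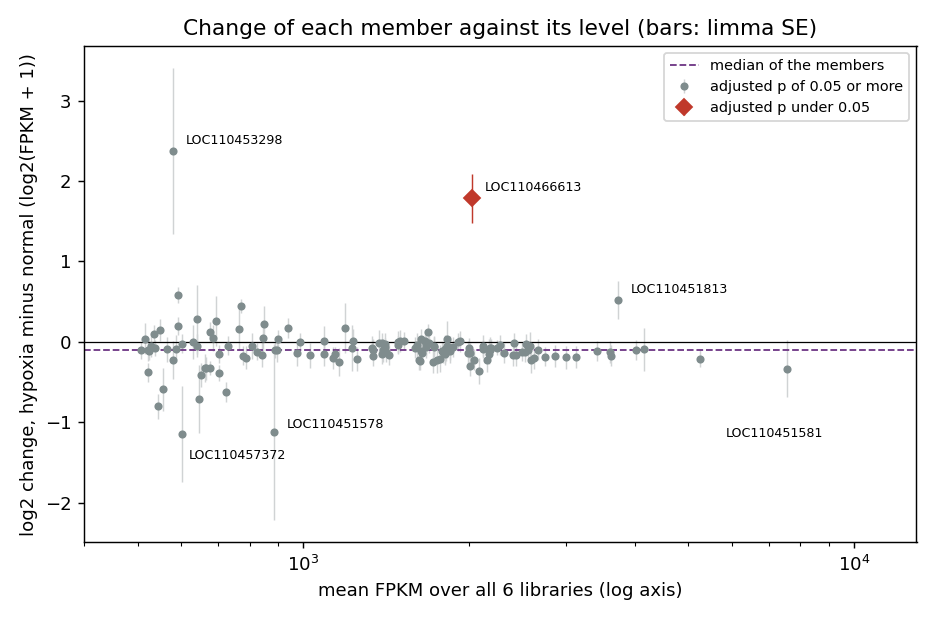
For each of the 145 genes, the log2 change of hypoxia minus normal on log2(FPKM + 1) (y axis, bars are limma SE) is plotted against mean FPKM (x axis, log scale), with the gene that passed the test as a red diamond and the median of the set as a dashed line. Most points crowd just below 0, and LOC110466613 stands at 1.78.

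LOC110466613 was the gene that rose. It had 2842, 3615 and 2829.6 FPKM in hypoxia replicates 1, 2 and 3, against 1448, 647 and 761 FPKM in normal replicates 1, 2 and 3. Every hypoxia library was above every normal one, and normal replicate 1 was the highest of its group. The means were 3096 ± 449.9 FPKM under hypoxia and 952 ± 433 FPKM in normal gill (SD, n = 3 each), a ratio of 3.25. Limma put the log2 change at 1.78 with an SE of 0.31 (adjusted p = 0.049). In order of level among nuclear genes it stood at ranks 11, 5 and 10 in hypoxia replicates 1 to 3, against ranks 70, 127 and 117 in normal replicates 1 to 3. Its share of total FPKM was 0.615% under hypoxia and 0.180% in normal gill, a gain of 0.43 percentage points.

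The call of LOC110466613 lay at the threshold and was lost when most single libraries were left out. The gene passed in 7 of 18 alternatives, with limma adjusted p from 0.0074 to 0.18 and log2 changes from 1.55 to 2.13. The limma adjusted p was 0.16, 0.18 and 0.15 without hypoxia replicates 1, 2 and 3, and 0.12 and 0.15 without normal replicates 2 and 3. Without normal replicate 1 it was 0.0074. With 1 library left out, the number of all tested genes called higher also fell, from 203 to between 38 and 172.

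A pair of genes had higher values in all hypoxia scallops without passing the test in the deposited scaling. LOC110442111 had 719.8, 745 and 663 FPKM in hypoxia replicates 1 to 3, against 491, 439.9 and 491 FPKM in normal replicates 1 to 3. The groups did not overlap, with means of 709 ± 41.95 FPKM under hypoxia and 474 ± 29.6 FPKM in normal gill (SD, n = 3 each). Limma put the log2 change at 0.58 with an SE of 0.10 (adjusted p = 0.053), and the gene passed in 4 of the 18 alternatives (limma adjusted p from 0.025 to 0.22). LOC110442111 met the rule of 500 FPKM only through the hypoxia group, so its difference is not independent of the rule. The other was LOC110460163, singled out after its values were seen, at 903, 899 and 864 FPKM in hypoxia replicates 1 to 3, against 623, 677 and 659 FPKM in normal replicates 1 to 3. The spread within each group was small beside the gap, and the log2 change was 0.44 (SE 0.09, limma adjusted p = 0.076). It passed in 2 of the 18 alternatives (limma adjusted p from 0.025 to 0.26).

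Among genes with lower values under hypoxia, the smallest p-values were those of LOC110460456 and LOC110466842, and neither passed the test. LOC110460456 had 405, 408 and 370.1 FPKM in hypoxia replicates 1 to 3, against 560.2, 724 and 802 FPKM in normal replicates 1 to 3. All 3 hypoxia libraries were below all normal ones, and the normal libraries spread more widely (log2 change -0.80, SE 0.15, limma adjusted p = 0.062). LOC110460456 met the rule of 500 FPKM only through the normal group, so its difference is not independent of the rule. LOC110466842 had 589, 574 and 542 FPKM in hypoxia replicates 1 to 3, against 754, 958 and 922 FPKM in normal replicates 1 to 3. Its groups were separate as well (log2 change -0.62, SE 0.12, limma adjusted p = 0.071). Without normal replicate 1 both passed, with limma adjusted p of 0.028 for LOC110460456 and 0.040 for LOC110466842. LOC110460456 passed in 2 of the 18 alternatives (limma adjusted p from 0.028 to 0.20). LOC110466842 passed in 1 of the 18 (limma adjusted p from 0.040 to 0.23).

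The 8 highest genes held 6.70 ± 0.495% of total FPKM under hypoxia and 6.97 ± 0.691% in normal gill (SD, n = 3 each), and none of the 8 passed the limma test. LOC110451581 was the highest nuclear gene in every library. It had 6593, 8136 and 4808 FPKM in hypoxia replicates 1 to 3, against 13417, 5673 and 6795 FPKM in normal replicates 1 to 3. Normal replicate 1 stood far above the other scallops, and the groups overlapped (log2 change -0.33, SE 0.35, limma adjusted p = 0.66). Its loss of 0.34 percentage points of total FPKM was the largest of the set, and without normal replicate 1 its log2 change turned to 0.036.

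LOC110452012 was the second-ranked gene by mean level. It had 5074, 4763 and 4787 FPKM in hypoxia replicates 1 to 3, against 5732, 5143 and 6083 FPKM in normal replicates 1 to 3. The hypoxia scallops all lay below the normal ones, by a margin small beside the spread of the normal group (log2 change -0.21, SE 0.11, limma adjusted p = 0.36). LOC110461681 had 3560.1, 4383 and 3873 FPKM in hypoxia replicates 1 to 3, against 2764, 4765 and 5602 FPKM in normal replicates 1 to 3. Its hypoxia values fell inside the normal range.

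LOC110451813 had 5772, 3533 and 3927 FPKM in hypoxia replicates 1 to 3, against 3796, 2928 and 2454 FPKM in normal replicates 1 to 3. Hypoxia replicate 2 lay below normal replicate 1, so the groups overlapped (log2 change 0.52, SE 0.24, limma adjusted p = 0.32). It gained 0.30 percentage points of total FPKM, second to LOC110466613, and it took more reads than any other of the 145 genes in a single library, 430374 in hypoxia replicate 1.

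The remaining 4 of the 8 highest genes had close levels in both groups. LOC110464467 had 4098, 4042 and 3509 FPKM in hypoxia replicates 1 to 3, against 3786, 4136 and 4579 FPKM in normal replicates 1 to 3. LOC110461154 had 3589.8, 3441 and 3144 FPKM in hypoxia replicates 1 to 3, against 3630.1, 3466 and 4425 FPKM in normal replicates 1 to 3. In both genes normal replicate 3 was the highest library and hypoxia replicate 3 the lowest. LOC110445887 had 3610.2, 3310.0 and 3380.4 FPKM in hypoxia replicates 1 to 3, against 3520.1, 3337 and 4466 FPKM in normal replicates 1 to 3. LOC110460793 had 3508, 3283 and 3054 FPKM in hypoxia replicates 1 to 3, against 3169.9, 3455 and 4064 FPKM in normal replicates 1 to 3. Normal replicate 3 was again the highest library in both, and the other 5 libraries lay close together.

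A few genes varied widely between scallops of the same group. In 11 of the 145 genes the highest scallop of a group exceeded the lowest by more than 2-fold, in 4 genes within hypoxia and in 9 within normal gill. Such counts were not made for other genes, so they only describe the set. The widest range was that of LOC110453298, singled out after its values were seen. It had 1870.4, 107 and 1130.0 FPKM in hypoxia replicates 1 to 3, against 118, 79.3 and 173 FPKM in normal replicates 1 to 3. Hypoxia replicates 1 and 3 were high and hypoxia replicate 2 was inside the normal range, from 29859, 1791 and 18573 reads in the hypoxia libraries and 1834, 1204 and 2494 reads in the normal ones. The log2 change of 2.37 (SE 1.03) was the largest of the set, with limma adjusted p = 0.29. Without hypoxia replicate 2 it was 3.62 (limma adjusted p = 0.042). That fit left out the only low hypoxia scallop, and the gene passed in no other setting. With a normal mean of 124 FPKM, LOC110453298 met the rule only through the hypoxia group, so its difference is not independent of the rule.

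LOC110451578 lies next to LOC110451581 among the listed genes in the reference order, 1 of 2 neighbouring pairs within the set. It had 291, 721 and 141 FPKM in hypoxia replicates 1 to 3, against 3579, 281 and 304 FPKM in normal replicates 1 to 3. Normal replicate 1 was 12.7-fold above the lowest normal scallop, and it was the library in which the neighbour LOC110451581 was highest too. In the hypoxia group both genes were highest in replicate 2 and lowest in replicate 3. The log2 change of LOC110451578 was -1.12 (SE 1.09, limma adjusted p = 0.63) and turned to 0.081 without normal replicate 1. This gene met the rule of 500 FPKM only through the normal group. How reads that fit both genes were treated is not given, so reads shared between neighbours of similar sequence cannot be told apart from joint expression.

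The other neighbouring pair, noted after its values were seen, differed less between scallops. LOC110449707 had 548, 339 and 436 FPKM in hypoxia replicates 1 to 3, against 861, 675 and 479 FPKM in normal replicates 1 to 3. LOC110449709 had 2037, 2223 and 1691 FPKM in hypoxia replicates 1 to 3, against 2556, 2016 and 2393 FPKM in normal replicates 1 to 3. The groups overlapped in both genes, and normal replicate 1 was the highest library in both.

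LOC110457372 had the lowest log2 change of the set, -1.15 (SE 0.60, limma adjusted p = 0.37) and was picked once its values were known. Its levels were 171, 244 and 919 FPKM in hypoxia replicates 1 to 3, against 683, 934 and 656 FPKM in normal replicates 1 to 3. Hypoxia replicates 1 and 2 were low, and hypoxia replicate 3 was within the normal range. LOC110457372 met the rule of 500 FPKM only through the normal group, so its difference is not independent of the rule.

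**Figure D4:**
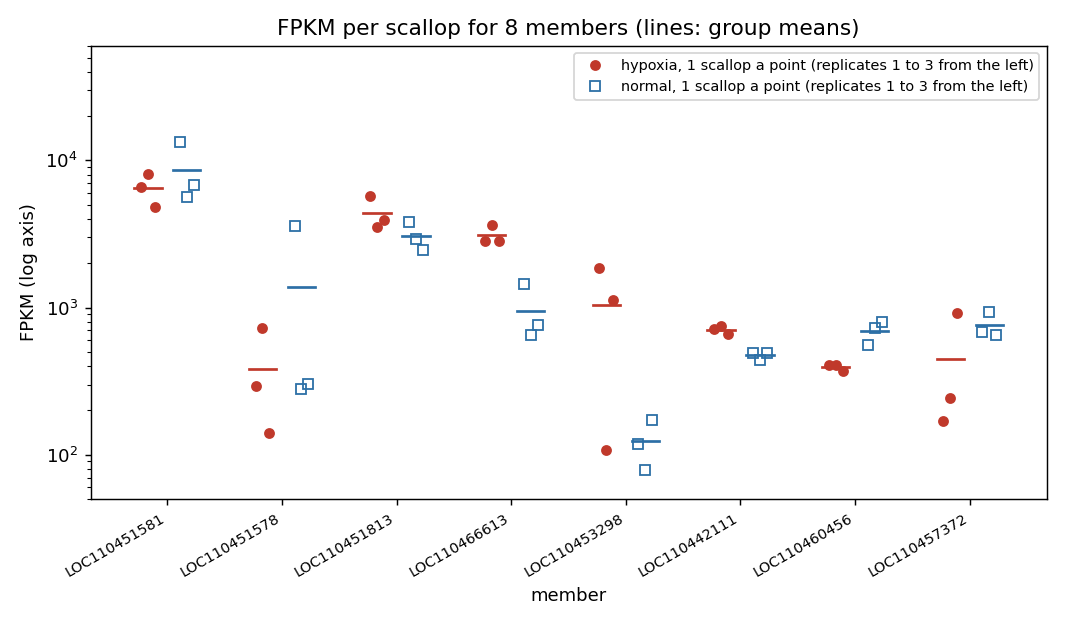
FPKM (y axis, log scale) of 8 abundant genes (x axis) in each scallop, filled circles for hypoxia and open squares for normal, with short lines at the group means. LOC110466613, LOC110442111 and LOC110460456 have separate groups, while LOC110451578, LOC110453298 and LOC110457372 are spread by single scallops. LOC110442111, LOC110451578, LOC110453298, LOC110457372 and LOC110460456 met the rule only through the group in which they were higher.

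Few genes entered or left the abundant range between the groups. Both group means were 500 FPKM or more in 136 nuclear genes. In 4 nuclear genes this held for the hypoxia mean alone, of which 2, LOC110442111 and LOC110453298, belong to the 145. In 13 nuclear genes it held for the normal mean alone, of which 7 belong to the 145. Those 7 are LOC110445924, LOC110449707, LOC110451578, LOC110457372, LOC110457826, LOC110459362 and LOC110460456. Members named in this paragraph met the rule only through the group in which they were higher, so their difference is not independent of the rule. These counts describe group means and were not tested.

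The abundant genes were short, and their levels varied between libraries with their length. Recovered transcript length had a median of 873 bases, from 271 to 4166 bases, against 2920.0 bases over all tested genes. Of the 145 genes, 58.6% were under 1000 bases, against 8.01% of all tested genes. FPKM divides by length, so level and length are not independent measures here. Normal replicate 3 was the highest library for 103 of the 145 genes (71.0%), against 16.2% of all tested genes. That library was also the lowest for 28.5% of all tested genes and for 3.45% of the 145. The lowest library of the 145 was most often hypoxia replicate 3 (35.9%, against 13.7% of all tested genes) or normal replicate 1 (28.3%, against 13.9%).

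Deviations differed by length class in normal replicates 3 and 1, in opposite directions. In the 42 genes under 600 bases the median log2 deviation of normal replicate 3 from each gene's own mean was 0.28, and it was the highest library in 39 of them. In the 43 genes of 600 to under 1000 bases the median deviation was 0.25. It was 0.18 in the 25 genes of 1000 to under 1600 bases. In the 35 genes of 1600 bases or more it was 0.09, and normal replicate 3 was the highest library in 11. In normal replicate 1 the median deviation was -0.12, -0.10, -0.02 and 0.096 from the shortest class to the longest. Over all tested genes the median deviation was -0.08 in normal replicate 3 and -0.0044 in normal replicate 1. The median log2 change between the groups differed little by length, at -0.11 under 600 bases and -0.08 at 1600 bases or more. The share of genes with a change below 0 did differ, at 88.1, 86.0, 80.0 and 62.9% from the shortest class to the longest. With each library's trend with length removed, the median change of the 145 genes was -0.12, against -0.04 over all tested genes. The part of library make-up in this pattern was not tested.

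**Figure D5:**
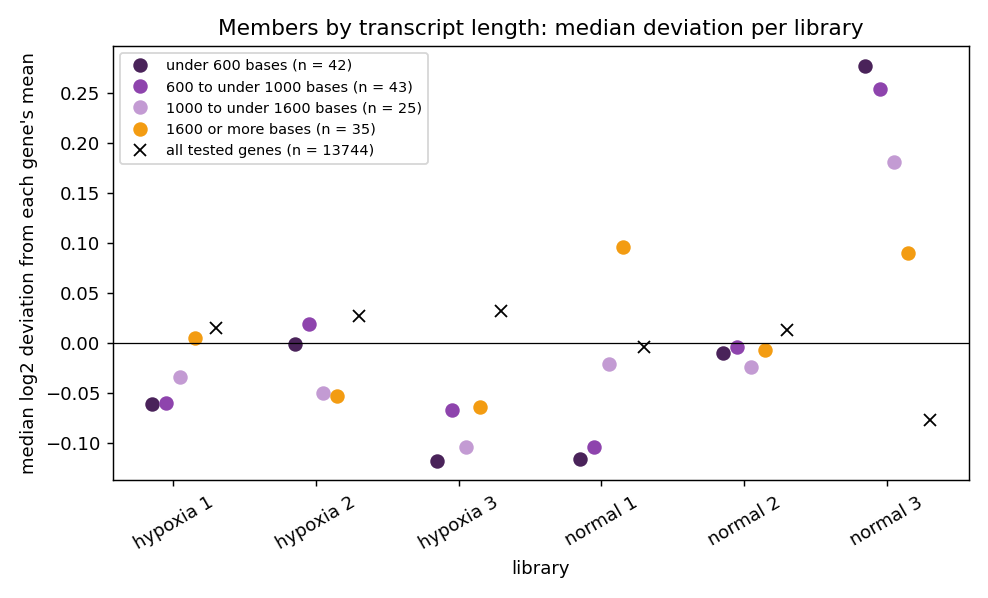
Median log2 deviation from each gene's mean over the 6 libraries (y axis) by library (x axis, hypoxia then normal), with circles for the abundant genes in 4 classes of transcript length and crosses for all tested genes. In normal replicate 3 the circles run from 0.28 in the shortest class to 0.09 in the longest, while all tested genes stand at -0.08. In normal replicate 1 they run the other way, from -0.12 to 0.096.

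Spread between scallops was compared by group and by level. The median SD per gene on the log2 scale was 0.090 among hypoxia scallops and 0.193 among normal scallops. For the 472 nuclear genes averaging 100 to under 500 FPKM it was 0.145 among hypoxia and 0.217 among normal scallops. The median size of the change, without its sign, was 0.12 in the 145 genes and 0.19 in the 472. Of the 472, 14 rose and 2 fell by the limma test, against 203 and 59 of all 13744 tested genes (1.48 and 0.429%). Normal replicate 3 had a median log2 deviation of 0.23 over the 145 genes, and its part in the normal SD was not tested. Lower levels carry more counting error, but its part here was not tested. None of these contrasts between levels or between groups was tested.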

How the data were processed

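Gill RNA of 6 scallops was analysed, 3 under hypoxia and 3 at normal oxygen. The authors deposited 1 table of FPKM values, with 1 column per library, and each column was matched to its sample by title. Per the submitters' processing notes, fastp, HISAT2 and HTSeq were used. Their versions and settings, strand use, the genome build and the annotation used are not given in these sources. RNA was extracted with TRIzol, per the labels' protocols.

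The 145 genes and all lists were chosen with earlier results of these data known. The FPKM values entered limma 3.58.1 (R 4.3.3) as deposited: limma-trend on log2(FPKM + 1), two-sided, group as the only term, a minimum of 1 FPKM in 3 of the 6 libraries, Benjamini-Hochberg adjustment across the tested genes, threshold 0.05. This scale slightly understates changes. Shares and medians over the set were not tested. The code was tested on simulated data.

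Whole reads were recovered by seeking, for each library, the total that makes the reads of the 11 mitochondrial genes whole at their lengths in the reference table (assembly ASM211388v2), and then a whole-number length for every other gene (50 to 60000 bases, tolerance 0.002 reads). A length was missing for 2 genes. Of 500 control genes, 100.0% came out whole, and 0% with altered totals. The control genes were drawn only from genes well above the filter in every library, so genes of low level were not checked this way. Recovered lengths are taken to be those the FPKM were scaled by.

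Named genes were the 8 highest by mean FPKM, the 2 with the smallest p in each direction, the 2 with the largest gain and the 2 with the largest loss in share, and 2 on each side of the threshold. No listed pathway or marker set could be matched, since all 145 identifiers carry no other name. Alternatives covered the pseudocount, filters, scaling, variance model, replicate block, voom, the rule's threshold and each library left out. Removal of the length trend (loess, span 0.5) and the share without the highest gene were added after seeing the data. Array weights used statmod 1.5.0, and tables and plots were made in Python 3.11.15 with pandas 2.3.3, numpy 2.4.6 and matplotlib 3.10.9.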

Additional observations from a re-analysis of the deposited data

How the results depend on the processing

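The number of the 145 genes called higher (1 in the deposited scaling) was 0 without the trend, with median ratio scaling, without a filter, with a pseudocount of 0.1 and with the replicate block. It was 2 with array weights, under quantile normalization and with a minimum mean of 5 FPKM, and 3 with libraries rescaled to an equal sum. Of all 13744 tested genes, 199, 167 and 220 were called higher with array weights, quantile normalization and equal sums. With the minimum mean of 5 FPKM it was 175 of 7867 tested genes. All tested genes called higher numbered 191 without the trend, 166 with median ratio scaling and 163 with a pseudocount of 0.1. The number of the 145 called lower was 1 under quantile normalization, against 59 of all tested genes. Leaving out 1 library gave 0 to 1 higher and 0 to 2 lower among the 145, and 38 to 172 higher and 8 to 43 lower among all tested genes. Of all tested genes, 99 were called higher and 27 lower when no filter was used, against 46 and 5 under the replicate block. The labels do not say that a number marks a pair. Deviations of libraries 1, 2 and 3 from their group means correlated with those of the same number at 0.10, 0.01 and -0.09, and hypoxia replicate 3 was closer to normal replicate 2 (0.17).

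A threshold of 250 FPKM gave 246 genes, 4 of them called higher (1.63%, against 1.48% of all tested genes), with 51.2% of total FPKM under hypoxia and 51.6% in normal gill. A threshold of 1000 gave 95 genes with 37.7 and 38.2%, and 500 in every library gave 42.1 and 42.6%. Of 140 genes at 500 or more in the hypoxia mean 2 were called higher (1.43%, by a rule that favours higher genes). Of 149 in the normal mean 1 was (0.671%), against 1.48% of all tested genes. Shares were 47.1 and 48.8% of nuclear FPKM, 22.7 and 24.1% of recovered reads, and 42.97 and 43.3% of total FPKM without the highest gene, a difference of -0.34 percentage points against -0.68 with it. Leaving out 1 library moved the hypoxia share between 43.9 and 44.8%, the normal share between 43.9 and 45.7% and their difference between -1.39 and 0.37 percentage points.

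Under quantile normalization the log2 change reversed in LOC110445887 (0.077), LOC110452012 (0.018), LOC110460793 (0.015), LOC110461681 (0.11) and LOC110464467 (0.074). With 1 library left out it ran from -0.21 to 0.0016 in LOC110445887 and from -0.40 to 0.11 in LOC110461681, the highest without normal replicate 3. It ran from -1.75 to 0.081 in LOC110451578 and from -0.58 to 0.036 in LOC110451581, the highest without normal replicate 1. None of these passed the limma test, and the cause was not tested. The planned protein comparisons were not run, as no protein was given for these genes here.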
